A study of Mus musculus with 9 samples.

Results

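The 10 genes described here encode apolipoproteins (Apoe, Clu, Apod), lipid efflux transporters (Abca1, Abcg1), lipoprotein receptors (Lrp1, Lrp4), lipoprotein enzymes (Lcat, Lpl) and a brain fatty acid carrier (Fabp7). They were chosen by symbol, and all 10 were found among the 22092 genes counted. The mRNAs bound to astrocyte ribosomes were sequenced in 9 libraries from mice aged 2 months, 3 of whole astrocyte TRAP and 6 of endfeet TRAP. In TRAP (translating ribosome affinity purification), ribosomes carrying a GFP-tagged L10a protein are immunoprecipitated with their mRNAs. All mice were of the strain labelled Aldh1L1 JD130 and carried the tg:Aldh1L1-L10aGFP transgene, a bacterial artificial chromosome in which the promoter of Aldh1l1, an astrocyte folate enzyme, drives the tagged protein. Whole astrocyte TRAP started from the brain, a single one for each library with its choroid plexus taken out, and endfeet TRAP from purified brain vessels pooled from several mice, to which the perivascular ends of astrocyte processes stay attached. In these bulk samples, fewer cells of a type and less RNA per cell cannot be told apart.

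Astrocytes are the main source of lipoprotein particles in the brain. In this pathway Abca1 and Abcg1 pass cholesterol and phospholipid from the cell to apolipoproteins, Lcat esterifies the cholesterol on the particle, and receptors of the LDL receptor family on neurons, glia and vascular cells take the particle up. Genes for Abca1, Abcg1 and Apoe are known targets of the liver X receptors (LXR), which sense oxysterols.

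Of the 10 mRNAs, 8 were higher in endfeet TRAP, Fabp7 was lower, and Lpl did not pass the test. Among all 14427 genes tested, 20.7% were called higher and 13.9% lower by the same test. The median log2 fold change (endfeet over whole astrocyte) was 1.84 for the 10 genes and 0.10 for all genes tested. For 8 of the 10 mRNAs every endfeet library was above every whole astrocyte library, which held for 18.9% of all genes tested. Fabp7 was below in every endfeet library, as were 23.8% of all genes tested. Apod rose 23.5-fold, Lrp1 16.8-fold, Abca1 7.86-fold and Lrp4 7.84-fold, whereas the rises of Apoe, Clu, Abcg1 and Lcat lay between 1.88-fold and 2.82-fold.

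**Figure D1:**
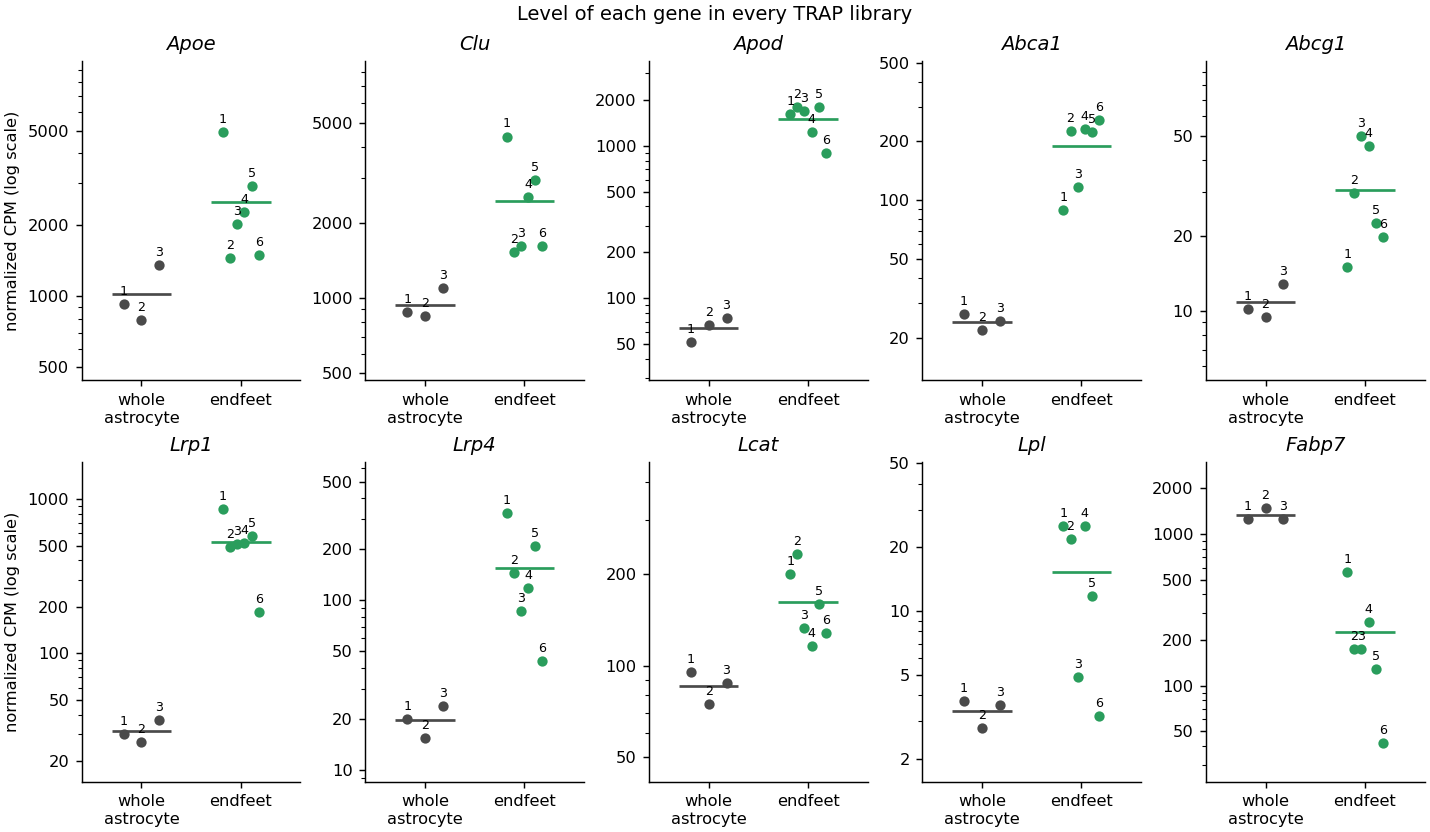
Level of each of the 10 mRNAs in every library, in CPM on a log axis. Each point is a library with its replicate number, grey for the 3 whole astrocyte and green for the 6 endfeet TRAP libraries, and the line is the group mean. The groups are apart for every mRNA except Lpl, and endfeet replicate 6 is the lowest endfeet library for Apod, Lrp1, Lrp4, Lpl and Fabp7.

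Libraries held between 35984144 and 43521208 gene counts in whole astrocyte TRAP and between 2319495 and 13450588 in endfeet TRAP, the smallest being endfeet replicate 6. Levels are given as CPM, counts scaled to the same library size with TMM factors. The limit of detection, taken as 3 counts per library, was at most 0.0811 CPM and 1.37 CPM, respectively, and all 10 mRNAs lay above it in every library. It covers counting error only. By the numbers in the names of the deposited files, endfeet replicates 1 to 3 form a separate series from endfeet replicates 4 to 6 and the whole astrocyte libraries, and the sources used here do not say what these numbers mean. Of the 18 astrocyte markers, 2 were higher in endfeet TRAP, Aqp4 among them, and 7 were lower, with summed levels of 41492 to 46268 CPM in whole astrocyte and 17715 to 46845 CPM in endfeet libraries. Aldh1l1 itself averaged 258 CPM in whole astrocyte and 49.5 CPM in endfeet TRAP. Markers of other cells moved with the comparison. All 10 endothelial markers were higher in endfeet TRAP (summed levels of 45.9 to 54.9 CPM in whole astrocyte and 4158 to 5684 CPM in endfeet libraries, with Ly6c1 at 0 in a whole astrocyte library), as were all 10 mural markers (36.5 to 38.03 CPM and 3571 to 8115 CPM, with Abcc9 at 0 in a whole astrocyte library). The same was found for 9 of 10 fibroblast markers (36.3 to 55.9 CPM and 1018 to 1724 CPM, with Dpep1 at 0 in libraries of both groups), 7 of 10 microglia and macrophage markers (18.8 to 23.1 CPM and 282 to 449.8 CPM, with Aif1 at 0 in an endfeet library), 7 of 10 ependymal markers (35.0 to 46.9 CPM and 189 to 797 CPM) and 9 of 10 choroid plexus markers (78.7 to 1562 CPM and 7087 to 92282 CPM). Of 10 neuronal markers none was higher and 3 were lower (4075 to 4689 CPM and 1287 to 2207 CPM). Of 10 oligodendrocyte markers 1 was higher and 1 lower (713 to 716 CPM and 496 to 907 CPM), with Mog, Mag, Ermn and Opalin each at 0 in at least 1 endfeet library. The part of these markers in the differences described below was not tested.

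Apoe and Clu had the highest mean CPM of the 10 mRNAs in endfeet TRAP, and Apod came next. Apoe (ENSMUSG00000002985, chr7:19696109-19699188 on mm10) encodes the main lipid-carrying apolipoprotein of the brain. Its level was 923, 793 and 1359 CPM in the 3 whole astrocyte libraries. In the 6 endfeet libraries the lowest value was 1452 CPM, the median 2142 CPM and the highest 4910.3 CPM. The groups did not overlap, but the lowest endfeet value lay close to the highest whole astrocyte value, and endfeet replicate 1 stood well above the rest. The log2 fold change was 1.29 ± 0.40 (SE, edgeR adjusted p = 0.0244). The call was lost without whole astrocyte replicate 1 (edgeR adjusted p = 0.0893), whole astrocyte replicate 2 (0.12), endfeet replicate 4 (0.0551) or endfeet replicate 5 (0.0644). Without a whole astrocyte library the calls over all genes fell as well, from 2991 higher to between 1874 and 1959.

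Clu (ENSMUSG00000022037, chr14:65968483-65981547) encodes clusterin, a secreted chaperone that travels on lipoproteins. Whole astrocyte libraries held 879.8, 843 and 1091 CPM of it, and endfeet libraries from 1522 CPM through a median of 2067 CPM to 4408 CPM. As for Apoe, the groups were apart and endfeet replicate 1 was highest. The log2 fold change was 1.38 ± 0.37 (SE, edgeR adjusted p = 0.0112), and only the fit without whole astrocyte replicate 2, among the 9 fits that each left out a library, lost the call (edgeR adjusted p = 0.0625).

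Apod (ENSMUSG00000022548, chr16:31296192-31314808) encodes a lipocalin that binds arachidonic acid and other small lipids. It showed the largest difference of the 10. Its level was 51.9, 66.9 and 73.7 CPM in whole astrocyte libraries and 899 (lowest), 1660.1 (median) and 1803 CPM (highest) in endfeet libraries. Every endfeet library was far above the whole astrocyte range, and Apod was the mRNA that varied least among endfeet libraries, with a coefficient of variation of 24.2%. Its log2 fold change was 4.55 ± 0.34 (SE, edgeR adjusted p = 8.98e-07). By mean count Apod was gene 3304 of all genes in whole astrocyte TRAP and gene 34 in endfeet TRAP, while Apoe moved from 80 to 17 and Clu from 92 to 18.

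Abca1 (ENSMUSG00000015243, chr4:53030787-53159895), the transporter that lipidates newly secreted apolipoproteins, was at 26.3, 21.8 and 24.3 CPM in whole astrocyte libraries. Endfeet libraries ranged from 89.1 CPM over a median of 223 CPM to 256 CPM. Replicates 1 and 3 held 89.1 and 117 CPM while the other 4 lay between 221 and 256 CPM, and all were above the whole astrocyte range. The log2 fold change was 2.97 ± 0.40 (SE, edgeR adjusted p = 0.000105). Abcg1 (ENSMUSG00000024030, chr17:31057675-31117988), which passes cholesterol on to particles that already carry lipid, was at 10.2, 9.47 and 12.8 CPM in whole astrocyte and at 15.01, 26.0 and 49.9 CPM (lowest, median and highest) in endfeet libraries. The groups were apart by a narrow margin, set by endfeet replicate 1. For Abcg1 the log2 fold change was 1.496 ± 0.55 (SE, edgeR adjusted p = 0.0485). This call was lost without any 1 of the 3 whole astrocyte libraries (log2 fold change 1.40 to 1.62, edgeR adjusted p from 0.128 to 0.181) and without endfeet replicate 2, 3, 4 or 5 (0.0622 to 0.112).

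Lrp1 (ENSMUSG00000040249, chr10:127538161-127621148) encodes a large endocytic receptor for Apoe particles and many other ligands. Whole astrocyte libraries held 30.1, 26.5 and 37.1 CPM. In endfeet libraries the lowest value was 186 CPM, the median 515 CPM and the highest 868 CPM. All 6 were more than the highest whole astrocyte value, and 4 of them lay between 487 and 577 CPM. Lrp1 thus had a log2 fold change of 4.07 ± 0.45 (SE, edgeR adjusted p = 2.22e-05). Lrp4 (ENSMUSG00000027253, chr2:91457511-91513779), a related receptor known best as the agrin receptor of the neuromuscular junction, was at 19.9, 15.4 and 23.8 CPM in whole astrocyte libraries and at 43.9, 131 and 326 CPM (lowest, median and highest) in endfeet libraries. It varied 7.42-fold between endfeet libraries and was apart from the whole astrocyte range in all of them. Lrp4 had a log2 fold change of 2.97 ± 0.58 (SE, edgeR adjusted p = 0.00151).

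Lcat (ENSMUSG00000035237, chr8:105939551-105943382), the secreted enzyme that makes cholesteryl esters on lipoproteins, had the smallest rise. It was at 95.0, 75.03 and 87.5 CPM in whole astrocyte libraries and at 116 (lowest), 146 (median) and 232 CPM (highest) in endfeet libraries. The groups did not overlap, and the log2 fold change was 0.91 ± 0.30 (SE, edgeR adjusted p = 0.0319). The call was lost without any 1 of the 3 whole astrocyte libraries (log2 fold change 0.81 to 1.03, edgeR adjusted p from 0.0791 to 0.154) and without endfeet replicate 5 (0.0761). The gene is overlapped over its whole length by an antisense gene, Gm16156, and without strand their reads cannot be told apart. Lpl (ENSMUSG00000015568, chr8:68880491-68907448), the lipase that hydrolyses triglycerides of circulating lipoproteins, was the least abundant of the 10, at 3.73, 2.81 and 3.599 CPM in whole astrocyte libraries. Endfeet values were spread from 3.20 CPM (7 counts, replicate 6) over a median of 16.8 CPM to 25.3 CPM, with 5 of 6 libraries above the whole astrocyte range. For Lpl the log2 fold change was 2.19 ± 0.83 (SE, edgeR adjusted p = 0.0566), and it passed the test without endfeet replicate 3 (edgeR adjusted p = 0.0434) or replicate 6 (0.0157).

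Fabp7 (ENSMUSG00000019874, chr10:57784881-57788450) encodes the brain fatty acid binding protein of radial glia and astrocytes, which carries polyunsaturated fatty acids in the cytosol. It was the only 1 of the 10 that fell. Whole astrocyte libraries held 1246, 1484 and 1254 CPM, which made Fabp7 the 47th gene by mean count. Endfeet libraries held from 42.0 CPM (replicate 6) over a median of 175 CPM to 563 CPM (replicate 1), so that the highest endfeet library was still below the lowest whole astrocyte library. Its log2 fold change was -2.56 ± 0.53 (SE, edgeR adjusted p = 0.00224), a 5.91-fold lower level. With a coefficient of variation of 80.5%, Fabp7 was also the least even of the 10 among endfeet libraries, against 10.2% among whole astrocyte libraries.

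Endfeet replicate 1 was highest of its group for Apoe, Clu, Lrp1, Lrp4, Fabp7 and, by a narrow margin, Lpl, and lowest for Abca1 and Abcg1. Of the endfeet libraries it held the highest sums of astrocyte (46845 CPM, only narrowly above 45898 CPM in replicate 5), choroid plexus (92282 CPM), ependymal (797 CPM) and oligodendrocyte (907 CPM) markers. It also held the lowest sums of mural (3571 CPM), endothelial (4158 CPM) and microglia and macrophage (282 CPM) markers. Without it the log2 fold change of Apoe was 0.98, of Clu 1.12, of Lrp4 2.62 and of Fabp7 -3.08, all past the test. What part these markers had in the levels of that library was not tested.

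**Figure D2:**
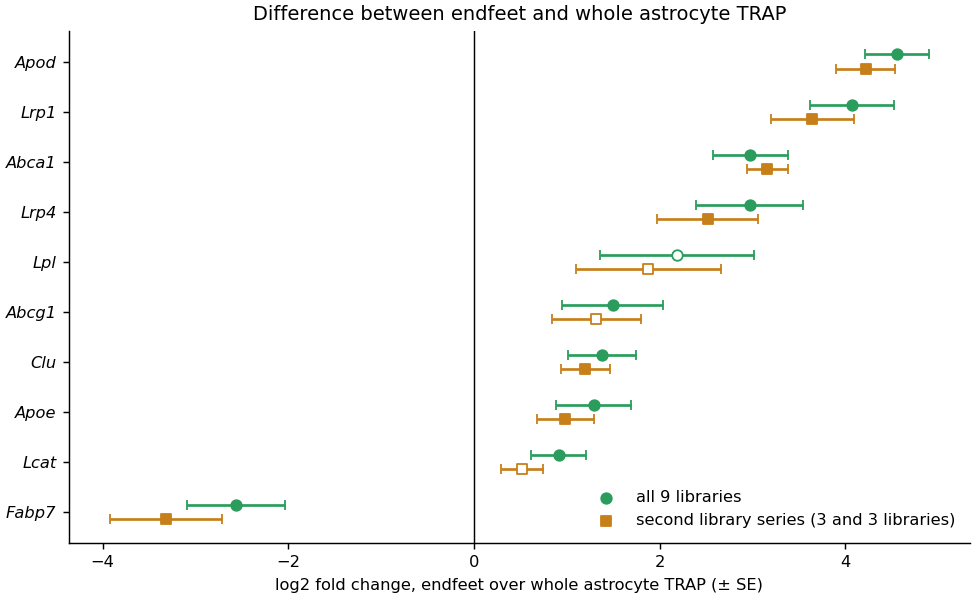
Log2 fold change of each mRNA between endfeet and whole astrocyte TRAP (x axis, with bars for the SE), over all 9 libraries (circles) and within the second library series (squares, 3 libraries a group). Filled symbols passed the test. Directions are shared by both fits, and Abcg1 and Lcat pass only with all libraries.

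Within the second library series, which holds 3 libraries of each group, 6 of the 10 mRNAs were higher and Fabp7 was lower, against 19.5% and 19.7% of all genes tested there. Abcg1 (log2 fold change 1.32, edgeR adjusted p = 0.0642), Lcat (0.52, 0.110) and Lpl (1.88, 0.0959) did not pass in this series. With the series as a term of the model, Apod, Lrp1, Abca1, Lrp4 and Clu remained higher, with 18.6% of all genes called higher, and Fabp7 remained lower. Apoe then had a log2 fold change of 1.12 (edgeR adjusted p = 0.0776), Abcg1 of 1.44 (0.0924) and Lcat of 0.65 (0.127).

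Levels of different mRNAs can be set side by side only per length, as CPM per kb of the transcript that represents the gene. On this scale Fabp7 led in whole astrocyte TRAP with 1652 ± 168 CPM per kb (SD, n = 3), followed by Apoe (728 ± 210.3) and Clu (518 ± 73.9), whose ranges overlapped. Lcat (64.0 ± 7.51) and Apod (30.9 ± 5.39) came next, each apart from its neighbours. Lrp4, Abca1, Lrp1 and Abcg1, between 1.85 and 2.49 CPM per kb, overlapped each with the next, and Lpl was last at 0.821 ± 0.122. In endfeet TRAP the order began with Apoe (1780.1 ± 920.0 CPM per kb, SD, n = 6), Clu (1347 ± 623) and Apod (726 ± 175), followed by Fabp7 (279 ± 225). The ranges of these neighbours overlapped, yet Apoe exceeded Clu in 6 of 6 endfeet libraries and Clu exceeded Apod in 5 of 6. Lcat (120.3 ± 34.2) was apart from Lrp1 (35.3 ± 14.6), which exceeded Lrp4 (19.5 ± 12.7) in all 6 libraries, while Lrp4 and Abca1 (18.5 ± 6.70) could not be ordered, with Lrp4 higher in 2 of 6. Abcg1 (5.21 ± 2.46) and Lpl (3.74 ± 2.46) closed the order and overlapped. The order depends on which transcript gives the length. Apod was divided by 2074 bases, although a 1070-base transcript held 87.9% to 96.5% of its count in endfeet libraries. Apoe was divided by 1408 bases, although a 1128-base transcript held nearly the same counts. By the shorter lengths both would stand higher, and their order and overlaps with their neighbours could differ.

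Ratios of counts within a library do not depend on how it was scaled. They are not corrected for transcript length, so they are compared between libraries only and do not say which mRNA was at the higher level. Counts of Apoe over counts of Clu (each plus 1) were 1.05, 0.941 and 1.25 in whole astrocyte libraries and between 0.903 and 1.25 in endfeet libraries. The mean log2 ratio differed by -0.08 between the groups (two-sided exact permutation test over the 84 arrangements of the group labels, p = 0.595, adjusted over 7 pairs 0.595). Counts of Apoe over counts of Apod were 17.8, 11.9 and 18.4 in whole astrocyte libraries and between 0.813 and 3.03 in endfeet libraries. This log2 ratio changed by -3.33 in endfeet TRAP (exact permutation p = 0.0119, the smallest that 84 arrangements allow, adjusted 0.0278), and that of Clu over Apod changed by -3.25 with the same p-values. All 6 endfeet libraries were below all 3 whole astrocyte libraries for these pairs. Lrp1 over Lrp4 rose from 1.51, 1.72 and 1.55 to between 2.67 and 5.93, a log2 difference of 1.23 (exact permutation p = 0.0119, adjusted 0.0278), again with no overlap.

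The ratio of Abca1 to Abcg1 was 2.58, 2.29 and 1.90 in whole astrocyte and 2.34 to 12.8 in endfeet libraries, with 5 of 6 endfeet libraries above, and its log2 difference of 1.502 did not pass (exact permutation p = 0.0476, adjusted 0.0833). It passed only without endfeet replicate 3, the library with the lowest of these ratios (log2 difference 1.79, adjusted exact permutation p = 0.0312). Lcat over Lpl differed by -0.96 (exact permutation p = 0.214, adjusted 0.250), and by -0.55 with counts summed over transcripts. Fabp7 over Fabp5, the epidermal form of the carrier, differed by 1.89 (exact permutation p = 0.179, adjusted 0.250), with Fabp5 at 0 counts in 2 endfeet libraries. This difference was 3.21 with a pseudocount of 0.1, 0.064 in the second library series and 3.71 with the replicate number as a block, and passed the test in none of these.

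**Figure D3:**
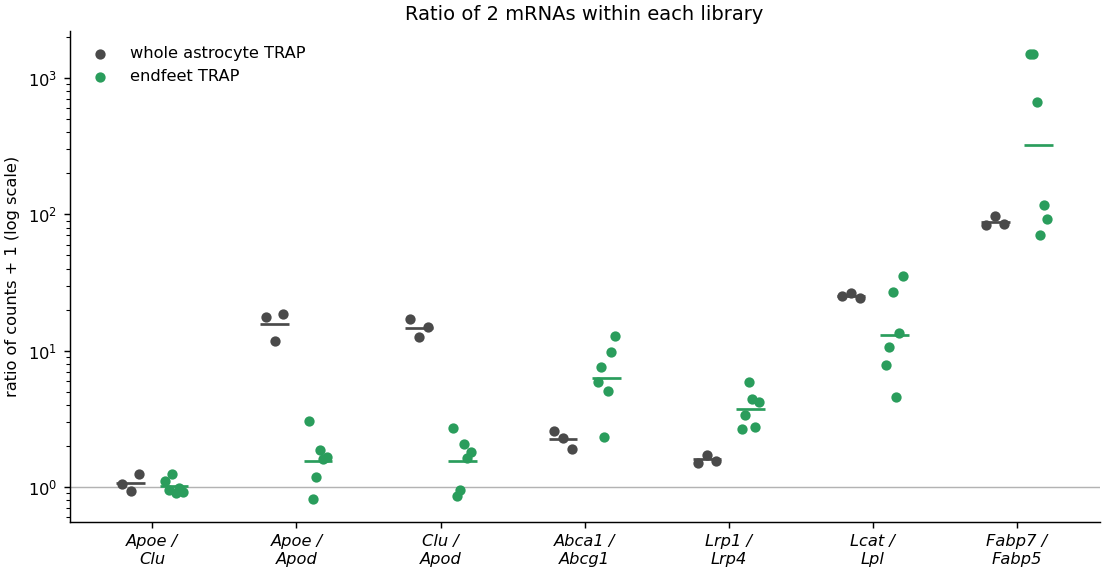
Ratio of the counts of 2 mRNAs (each plus 1) within each library, on a log axis, for the 7 pairs. Points are libraries, grey for whole astrocyte and green for endfeet TRAP, and lines are geometric means. Apoe over Clu overlaps between the groups, while the ratios of Apoe and of Clu to Apod are lower in all 6 endfeet libraries and that of Lrp1 to Lrp4 is higher in all 6.

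Reads of Apoe and Clu were also placed differently along the mRNA. A read was counted on each transcript that it overlapped, so the count of a short annotated transcript that lies inside the representative one gives the reads of that stretch. The 456-base Apoe transcript ENSMUST00000172808 lies within the representative transcript, centred 31.3% of the way from its 5′ end, and its count was 27.4%, 30.7% and 30.5% of the representative count in whole astrocyte libraries and 13.0% to 20.3% in endfeet libraries. For the 558-base Clu transcript ENSMUST00000138665, centred at 24.1%, it was 11.3% to 12.3% in whole astrocyte and 5.06% to 7.85% in endfeet libraries. The groups did not overlap in either case. For Apod the 1070-base transcript ENSMUST00000115230, centred at 28.5%, held 92.8% to 94.5% in whole astrocyte and 87.9% to 96.5% in endfeet libraries, which overlapped, but a share so near to the whole count leaves little room for a difference. The shorter Apod transcript ENSMUST00000145837, of which 49.2% lies in the representative one, held 35.6% to 36.8% and 24.9% to 35.5%, without overlap. In Lrp1, ENSMUST00000118455, a transcript of which 51.5% lies in the representative one near its 5′ end, held 18.9% to 21.8% and 5.57% to 13.5%. ENSMUST00000125480, of which 87.1% lies there, held 27.3% to 32.2% and 14.8% to 25.9%, also without overlap. ENSMUST00000121829, of which 86.2% does, overlapped (26.3% to 30.7% and 12.8% to 29.1%). That overlap came from endfeet replicate 1, and the next highest endfeet library was at 15.9%. Of the further Lrp1 transcripts, ENSMUST00000133620 was below in endfeet libraries on few counts, and the rest overlapped. Shares overlapped between the groups for Fabp7 ENSMUST00000165013 (41.7% to 44.9% in whole astrocyte and 34.8% to 43.6% in endfeet libraries) and Abca1 ENSMUST00000149127 (7.51% to 8.76% and 3.04% to 10.3%). They also overlapped for the Lrp4 transcripts and for further Apod transcripts. Lpl ENSMUST00000169749 was below in endfeet libraries on few counts (10.4% to 14.5% and 0% to 10%), and the other Lpl transcripts overlapped. Such shares were not worked out over all genes. They were not tested, nor was their part in the differences between the groups.

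**Figure D4:**
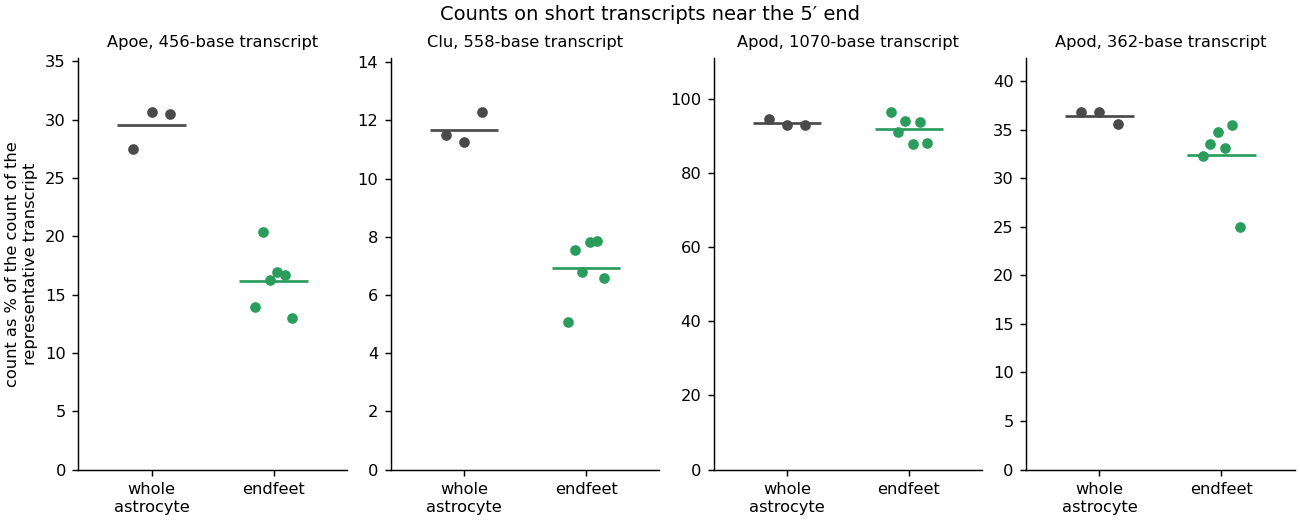
Count of a short transcript near the 5′ end as a percent of the count of the representative transcript (y axis, from 0), for Apoe, Clu and a pair of Apod transcripts. Points are libraries and lines are group means. Endfeet libraries lie lower for Apoe (13.0% to 20.3%) and Clu (5.06% to 7.85%), overlap with whole astrocyte libraries for the 1070-base Apod transcript, and lie narrowly below them for the 362-base one.

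Further genes of lipid transport were grouped in 6 lists of 93 genes in all, of which 73 could be tested. In endfeet TRAP 34 of them rose and 6 fell, and the median log2 fold change was 1.31. The counts below stand beside 20.7% of all genes tested called higher, 13.9% called lower and a median of 0.10. Efflux transporters and receptors made up most of the rises. Of 12 other efflux transporters 9 were higher and none was lower, with a median of 2.65. Abcb1a, which encodes P-glycoprotein, the drug efflux pump of brain endothelium, rose from 0.302 ± 0.045 to 263 ± 75.9 CPM (SD, n = 3 and 6, edgeR adjusted p = 1.07e-07). Abcg2, another barrier efflux pump, rose from 1.70 ± 0.35 to 135 ± 49.1 CPM (edgeR adjusted p = 1.84e-06), and Abca9, a relative of Abca1, from 1.94 ± 0.90 to 156 ± 68.2 CPM (8.26e-06). Abcg4, the nearest relative of Abcg1, did not pass (log2 fold change -0.47).

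Of 19 receptors and their partners tested 13 were higher and none was lower, with a median of 2.64. Lrp6, a Wnt co-receptor, rose from 36.8 ± 3.67 to 566 ± 114 CPM (SD, n = 3 and 6, edgeR adjusted p = 9.21e-07). Lrp8, the receptor for Apoe and reelin, rose from 39.4 ± 3.14 to 248 ± 63.5 CPM (edgeR adjusted p = 2.81e-05) and Lrp5, the other Wnt co-receptor, from 2.59 ± 0.298 to 59.9 ± 27.8 CPM (7.89e-05). Among the 12 lipoprotein and lipid enzymes tested 6 were higher and 2 lower, with a median of 1.17. Pltp, the phospholipid transfer protein, rose from 7.87 ± 1.89 to 508 ± 87.7 CPM (edgeR adjusted p = 1.64e-07) and Sel1l, which takes part in the maturation of Lpl, from 56.6 ± 4.02 to 274 ± 41.3 CPM (2.73e-05), whereas Mgll, the monoglyceride lipase, fell from 849 ± 18.1 to 79.4 ± 35.7 CPM (5.72e-06).

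Of the 10 fatty acid carriers tested none was higher and 3 were lower, beside 13.9% of all genes tested, with a median log2 fold change of -0.38. The other 7 did not pass, with log2 fold changes from -0.57 for Acsl3, an acyl-CoA synthetase, to 1.70 for Slc27a4, a fatty acid transporter that was above the whole astrocyte range in every endfeet library (edgeR adjusted p = 0.0505). Dbi, which binds acyl-CoA, fell from 1976 ± 139 to 257 ± 61.4 CPM (SD, n = 3 and 6, edgeR adjusted p = 2.00e-06), and Fabp5 from 15.04 ± 0.194 to 0.840 ± 1.42 CPM (0.0180). Fabp5 lost its call without any 1 of the whole astrocyte libraries (edgeR adjusted p from 0.0567 to 0.0599) and with the library series as a term (log2 fold change -3.17, 0.0655), and its log2 fold change of -4.06 became -5.62 without endfeet replicate 4. The list of other apolipoproteins holds 14 genes, also some related only by name or as a receptor, and 4 of them had counts enough for a test. The median log2 fold change of these was 0.21, and 1 was higher and 1 lower. Neither apolipoprotein among them was higher, since Apoc1 did not pass (log2 fold change -0.065) and Apoc3 fell. The one that rose was not an apolipoprotein. Apold1, an early response gene of endothelial cells, rose from 0.892 ± 0.649 to 49.5 ± 25.7 CPM (edgeR adjusted p = 0.000282). Apoc3, which encodes an inhibitor of Lpl, had 403 counts over the whole astrocyte libraries and 2 counts, in 1 library, over the endfeet libraries, a 96.2-fold lower level with an exact 95% interval from 26.4 to 797 that covers counting error only. Apobr, a receptor for apolipoprotein B, did not pass (log2 fold change 0.48).

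Of 16 LXR and sterol trafficking genes 5 were higher and none lower, with a median log2 fold change of 0.76, where 20.7% of all genes tested were higher. Neither LXR gene passed the test, with log2 fold changes of 0.65 for Nr1h3 (LXR alpha) and -1.21 for Nr1h2 (LXR beta). Stard4, a sterol carrier, rose from 71.4 ± 5.22 to 234 ± 87.1 CPM (SD, n = 3 and 6, edgeR adjusted p = 0.00174) and Srebf1, a transcription factor of lipid synthesis, from 25.8 ± 1.23 to 69.8 ± 8.96 CPM (0.00448). Ch25h, the cholesterol 25-hydroxylase, had no count in the whole astrocyte libraries and 6.17 ± 6.22 CPM in endfeet TRAP, at least 76.1-fold higher than the limit of 3 counts per whole astrocyte library (edgeR adjusted p = 0.00126). Endfeet replicate 6 held 17.8 CPM of it, and without that library the mean was 3.84 CPM and the bound 47.3-fold. All the lists stand beside the vascular, immune and choroid plexus markers given above, whose part in them was not tested.

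**Figure D5:**
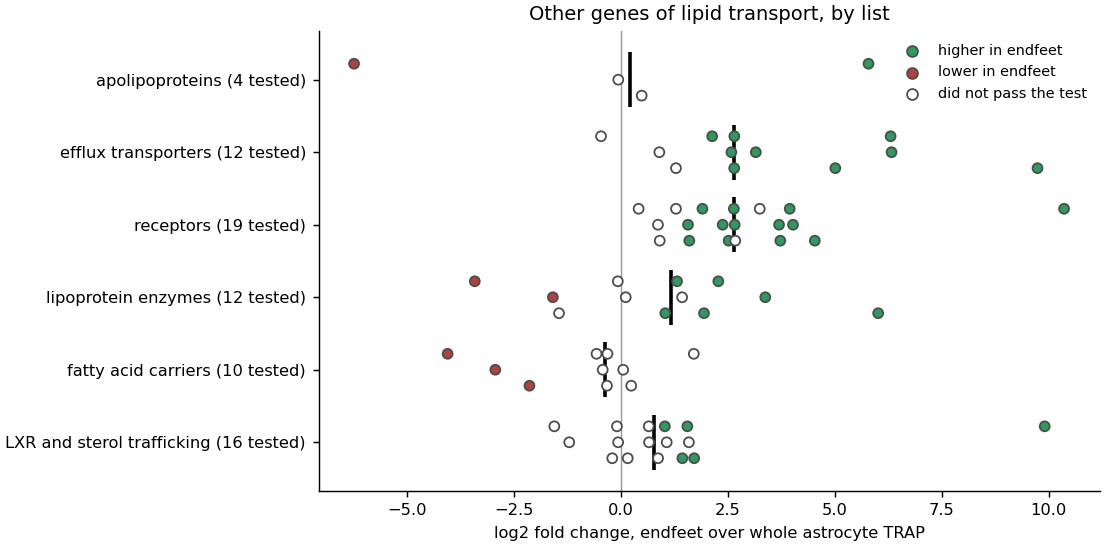
Log2 fold change of the 73 tested genes of the 6 lists (x axis), a point a gene, coloured by the result of the test, with a black line at each list's median. Transporters and receptors lie mostly to the right of 0, and the 3 fatty acid carriers that passed the test all lie to the left.

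For each of the 10 mRNAs the gene with the most similar course over the 9 libraries was sought among 10925 others, by the root mean square difference of centred log2 values. It was Pon2, a paraoxonase, for both Clu (difference 0.16) and Apoe (0.19). For Apod it was Tagln, which is on the mural marker list (0.20), for Abca1 Tfrc, the transferrin receptor (0.20), and for Lrp1 Lrrk1 (0.20). Tagln and Lrrk1 were at only 3.21 and 3.02 CPM in whole astrocyte TRAP, where the added constant narrows a difference between the groups. For Lcat it was Map4 (0.18), for Abcg1 Pitpnm3 (0.22) and for Lrp4 Cachd1 (0.30). Fabp7 was nearest to Fbxo2 (0.31) and Lpl to Vldlr, the very low density lipoprotein receptor (0.38), which were the least close of these pairs.

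Promoters are shown for Apod, which rose most, for Abca1, a known LXR target, and for Fabp7, the only 1 of the 10 that fell. Each runs from 250 bases before to 50 bases after the RefSeq start on GRCm38.p6, 5′ to 3′ on the strand of the gene, and capitals mark letters matched by a motif. They cover chr16:31314759-31315058 (minus strand) for Apod, chr4:53159846-53160145 (minus strand) for Abca1 and chr10:57784673-57784972 (plus strand) for Fabp7.
Apod: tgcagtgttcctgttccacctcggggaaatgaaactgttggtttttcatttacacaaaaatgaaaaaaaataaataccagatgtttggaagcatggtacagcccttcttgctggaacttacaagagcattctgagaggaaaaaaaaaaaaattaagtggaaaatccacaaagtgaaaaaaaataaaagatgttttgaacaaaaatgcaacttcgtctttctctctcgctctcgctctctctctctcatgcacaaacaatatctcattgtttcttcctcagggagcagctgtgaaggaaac
Abca1: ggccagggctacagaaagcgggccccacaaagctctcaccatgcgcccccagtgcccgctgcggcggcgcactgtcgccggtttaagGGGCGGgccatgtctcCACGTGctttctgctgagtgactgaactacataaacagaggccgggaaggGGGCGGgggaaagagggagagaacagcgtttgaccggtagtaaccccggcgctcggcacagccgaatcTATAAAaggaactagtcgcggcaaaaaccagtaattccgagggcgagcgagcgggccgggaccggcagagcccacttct
Fabp7: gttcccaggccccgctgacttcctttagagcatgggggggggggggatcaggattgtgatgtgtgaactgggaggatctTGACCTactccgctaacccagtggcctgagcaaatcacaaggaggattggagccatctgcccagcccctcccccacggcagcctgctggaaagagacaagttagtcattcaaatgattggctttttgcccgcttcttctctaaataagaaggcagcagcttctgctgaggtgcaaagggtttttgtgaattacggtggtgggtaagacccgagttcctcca
The motifs searched on both strands were the LXR element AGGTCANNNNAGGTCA, the nuclear receptor site AGGTCA (which the LXR element contains), the E-box CACGTG, the GC box GGGCGG and the TATA box TATAAA. Abca1 held an E-box starting at position -147, a TATA box at -29 and 2 GC boxes, Fabp7 held 1 nuclear receptor site, and Apod held none of the letters. Among 32851 RefSeq promoters of the same length 7.15% held the E-box, 13.6% the TATA box, 35.7% the GC box, 16.3% the nuclear receptor site and 0.0152% the LXR element. Only exact letters were matched, so variants of a site were missed. With so few exact matches to the LXR element anywhere, the lack of an exact match in the Abca1 promoter does not show that it lacks such an element. Nor can it show whether LXR binds there. The G and C content was 37.3% for Apod, 62.7% for Abca1 and 54.0% for Fabp7. Promoters of 6 of the 10 genes were found in the table.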

How the data were processed

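The authors made the deposited counts with the Eoulsan pipeline, aligning reads to mm10 with Bowtie, removing reads that matched more than once and counting overlaps with Ensembl transcripts by HTSeq 0.5.3. They are raw counts, neither normalized nor pooled. Of 75466 transcripts, 73164 were matched to 22092 genes of GENCODE M21, and each gene was represented by the transcript with the highest CPM summed over libraries, since a read is counted on every transcript it overlaps. The 2 groups were compared by edgeR's quasi-likelihood test (edgeR 4.0.16 in R 4.3.3, all 9 libraries, genes kept by filterByExpr, TMM factors), with Benjamini-Hochberg adjustment over 14427 genes and a threshold of 0.05. An SE is the size of a log2 fold change over the square root of its F value. Levels are CPM with TMM factors. Ratios used exact permutation tests over 84 arrangements of the group labels. edgeR was tested on simulated data of 14427 genes at equal spread, where it called 32% of changes of log2 2 and 88% of changes of log2 4, and 1 unchanged gene. On the same data DESeq2 called 56% and 98% of these changes and 77 unchanged genes. There limma voom called 26% and 79% of them and 2 unchanged genes. The common dispersion was in fact 0.0141 in whole astrocyte and 0.705 in endfeet TRAP. Libraries are taken as separate samples, as labelled, and the p-values measure the spread between them. The edgeR fit shared its dispersion between the groups, so its p-values rest on a pooled spread. Whole astrocyte libraries came from single brains and endfeet libraries from pools of mice, so the spreads are not of like units.

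The 10 genes, lists and tests were chosen with earlier results of these data known. Named are the 10 genes, the 3 tested genes of each list with the smallest adjusted p, Fabp5, the marker genes of a described list and the gene most similar to each of the 10. A gene that this rule names among the fatty acid carriers is not reported here. Abcg4, Nr1h2, Nr1h3, Acsl3, Slc27a4 and Apoc1 were named after their values were seen. Alternatives were DESeq2 1.42.0 (its Wald test and its size factors), scaling on astrocyte markers, other filters, counts summed over transcripts, limma 3.58.1 voom, the library series, the replicate number as a block, a log2 fold change of at least 1, a ratio pseudocount of 0.1 in place of 1 count, and each library left out. The sequences are from RefSeq (GRCm38.p6).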

Additional observations from a re-analysis of the deposited data

How the results depend on the processing

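No alternative reversed the direction of any of the 10 mRNAs. Apod, Lrp1, Abca1, Lrp4 and Fabp7 passed the test in all 19 other fits, whereas Clu lost its call in 1, Apoe in 6, Lcat in 8 and Abcg1 in 11 of them, and Lpl gained one in 5. Of the 10 mRNAs, 8 were called higher in the fit reported, 5 with the library series as a term (Apoe, Abcg1 and Lcat lost) and between 4 and 9 when each library was left out, and Fabp7 alone was lower in every fit. Of the lipid transport lists, 6 genes were lower as reported, 11 with limma voom and 10 in the second library series, with 27 to 36 higher and 5 to 7 lower when each library was left out. Of all genes, 2991 were higher and 2006 lower as reported, 59.9% of the calls being higher. Scaling on astrocyte markers shifted the median log2 fold change of all genes from 0.10 to 0.68 and that of the 10 mRNAs from 1.84 to 2.41, with 3419 higher and 757 lower (81.9%). With limma voom 4485 were lower (46.7% of calls higher), in the second series 2819 (49.8%), and leaving out each library gave 1874 to 3380 higher and 1171 to 2642 lower. Apobr turned to -0.83 with limma voom and -0.052 in the second series.

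Of the ratios, Apoe over Clu turned to 0.047 with counts summed over transcripts, and lay between -0.17 and 0.028 when each library was left out. In the second series alone, Apoe over Apod was -3.21, Clu over Apod -3.01 and Lrp1 over Lrp4 1.22 (each adjusted p 0.175 by the exact permutation test, which cannot pass with 3 libraries a group). Leaving out each library gave -3.54 to -3.15, -3.42 to -3.08 and 1.10 to 1.33, and 1.30 to 1.79 for Abca1 over Abcg1. The calls of the first 3 were lost without a whole astrocyte library or endfeet replicate 2. With a whole astrocyte library left out, fewer arrangements remain and the smallest p they allow is larger. Those losses therefore cannot show that the ratios changed.

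The labels do not say that replicate numbers pair the libraries. Libraries of the same number deviated together with correlations of -0.03, 0.01 and 0.07, and those of different numbers with correlations from -0.086 to 0.042. Each whole astrocyte library used up a whole brain and each endfeet library pooled vessels of several mice, so a shared number cannot mark the same animal. The correlations show no sign of another kind of pairing but are too few to exclude it. With the replicate number as a block 7 of the 10 mRNAs were higher (Abcg1 lost) and 1 lower, with 29 higher and 7 lower in the lists and 2501 and 1958 over all genes. In the paired differences of the ratios Apoe over Clu was 0.036, Apoe over Apod -3.46, Clu over Apod -3.50 and Lrp1 over Lrp4 1.24, where 3 pairs cannot pass the exact permutation test. Lpl had 7 counts in the smallest library, and 20 of the 93 list genes had too few counts to test.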
